A study of Mus musculus with 48 samples.

Results

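The miRNAs miR-15a, miR-15b and miR-16 were followed in the airways and serum of mice with and without an allergic airway response. They were chosen by name in the deposited count tables, as mmu-miR-15a-5p, mmu-miR-15b-5p, mmu-miR-15b-3p and mmu-miR-16-5p, which are 4 of 1409 miRNA entries. Small RNA was sequenced in 48 libraries of C57BL/6 mice. For lavage fluid, for the cells spun out of it and for serum there were 3 libraries from untreated, 4 from immunized and 7 from allergic mice, and for brushings of the airway epithelium 1, 2 and 3. Brushings were pools of 1 to 3 mice. Untreated mice received nothing. Immunized and allergic mice alike had weekly intraperitoneal injections of 50 ug ovalbumin, an egg protein, with the adjuvant Imject alum. From 7 days after the last injection, immunized mice aspirated PBS and allergic mice 50 ug ovalbumin in PBS on 3 days, and material was collected on day 4. Non-allergic stands here for untreated and immunized mice together. The untreated libraries were all in library set 2 and the immunized ones in sets 3 and 4, while allergic libraries were in all of these sets. The main tests therefore compared within sets, while ranges, means and overlaps of groups pool the sets.

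A miRNA is cut from a hairpin precursor, and its 5p or 3p strand is loaded into an Argonaute protein. The loaded guide finds messenger RNAs mainly by its seed, bases 2 to 8, and lowers their translation and stability. miR-15a, miR-15b and miR-16 share a seed and are best known for repressing Bcl2, a survival factor, and cyclins of the G1 phase. miR-15a and a miR-16 copy lie together in Dleu2, a region lost in human chronic lymphocytic leukemia, and miR-15b and the other miR-16 copy lie together in Smc4, a condensin gene. miR-16 is abundant in red blood cells and is a common component of miRNA measured in serum.

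The mature sequences below show what the members share and where they differ. The first line set holds the members, and the second holds the other arms of their genes and other guides that were measured. Sequences are from RefSeq (GRCm38.p6), 5′ to 3′, and capitals mark the seed.
miR-15a-5p: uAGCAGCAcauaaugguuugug
miR-15b-5p: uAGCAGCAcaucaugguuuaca
miR-16-5p: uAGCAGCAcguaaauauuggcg
miR-15b-3p: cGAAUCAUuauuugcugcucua
miR-15a-3p: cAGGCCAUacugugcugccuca
miR-16-1-3p: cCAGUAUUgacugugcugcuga
miR-16-2-3p: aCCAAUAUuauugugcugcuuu
miR-195a-5p: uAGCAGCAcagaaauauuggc
miR-497a-5p: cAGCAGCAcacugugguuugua
miR-322-5p: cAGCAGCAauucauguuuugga
miR-503-5p: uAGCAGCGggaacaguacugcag
The guides miR-15a-5p, miR-15b-5p and miR-16-5p carry the same seed, which they share with 10 mature names of the RefSeq table in all, 7 of them in the count tables. miR-503-5p has another base at the end of the seed. Counting from 1 at the 5′ end, miR-15a-5p and miR-15b-5p differ at 4 bases (A12C, G20A, U21C and G22A, with the miR-15a-5p base first) and are identical over the first 11. miR-16-5p differs from miR-15a-5p at 6 bases (G10A, A14U, U15G, A16G, G19U and C21U, with the miR-16-5p base first). miR-15b-3p, the passenger strand of the miR-15b hairpin, has an unrelated seed.

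On GRCm38, miR-15a-5p lies at chr14:61632075-61632096 on the minus strand, in the hairpin gene Mir15a within an intron of Dleu2. Mir16-1, 54 bases from Mir15a, encodes a miR-16-5p copy at chr14:61631936-61631957 and overlaps 1 Dleu2 exon. miR-15b-5p lies at chr3:69009775-69009796 and miR-15b-3p at chr3:69009813-69009834 on the plus strand, in Mir15b within an intron of Smc4. Mir16-2, 66 bases from Mir15b and also intronic in Smc4, encodes the other miR-16-5p copy at chr3:69009918-69009939. The copies of miR-16-5p are identical, so its counts cannot be assigned to chromosome 14 or 3.

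Levels are given as CPM, the count of an entry relative to the library total, after TMM scaling, which sets the libraries of a fit to a common scale, so every level is relative to the other miRNAs of the same library. In such bulk libraries fewer cells of a type and less RNA per cell cannot be told apart. Fluid libraries held 135707 to 561803 counts, cell libraries 43087 to 960796, serum libraries 137638 to 2738223 and brushings 113004 to 654157. The guides were deeply counted, but miR-15b-3p had 9 to 25 counts in non-allergic and 20 to 125 in allergic fluid libraries, and 3 counts in cells of untreated library 1. Epithelial markers followed the labelled material, but hematopoietic markers such as miR-223 and miR-142a did not set lavage cells apart from serum. The latter made up 3.68% to 9.16% of counts in non-allergic cells and 1.02% to 6.95% in non-allergic serum. Of 9 hematopoietic entries, 1 was higher and 2 were lower in cells, where 100 and 142 of all 356 entries were. Epithelial markers such as the miR-200 family made up 18.3% to 23.4% of counts in non-allergic brushings, 12.2% to 22.7% in non-allergic fluid, 2.38% to 4.44% in non-allergic cells and 0.101% to 0.788% in non-allergic serum. Erythroid markers (miR-451a, miR-144 and miR-486) made up 29.5% to 70.6% of non-allergic serum counts, and they were also common in the lavage cells (8.16% to 50.9% in non-allergic and 5.53% to 50.6% in allergic libraries), where untreated libraries 2 and 3 (50.9% and 48.5%) and allergic libraries 2 and 6 (43.6% and 50.6%) stood apart. In fluid, allergic libraries 2 and 6 stood apart with 9.39% and 14.9%, against 0.268% to 1.88% in the non-allergic libraries.

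In lavage fluid all 4 members were higher in allergic than in non-allergic mice. The increase was largest for both strands of miR-15b. Of the 253 entries tested in fluid, 33.2% passed (84 entries, 48 higher and 36 lower, with a median log2 difference over all entries of 0.01), at an adjusted p under 0.05 in edgeR's quasi-likelihood test. That split depends on the scaling, and by total counts 34 were higher and 67 lower.

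miR-15b-5p, the guide strand of miR-15b, had 1237, 1619 and 1637 CPM in the untreated fluid libraries and 2287, 1946, 1920 and 1844 CPM in the immunized ones. The allergic libraries had 4114, 6657, 2813, 4871, 2413, 11227 and 3506 CPM. Every allergic library was above every non-allergic one, as for 5.53% of the entries tested in fluid, and allergic library 6 was the highest. The means were 1784 ± 329 (SD, n = 7) and 5086 ± 3055 CPM (SD, n = 7), and the log2 difference was 1.47 ± 0.29 (SE; edgeR adjusted p = 0.00256). Within library sets 2, 3 and 4 the log2 differences of miR-15b-5p were 1.52, 0.70 and 1.74.

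Its passenger, miR-15b-3p, was at 31.8, 47.0 and 63.9 CPM (lowest, median and highest) in non-allergic fluid and at 109, 154 and 402 CPM in allergic fluid. These groups did not overlap either. The log2 difference of miR-15b-3p was 2.09 ± 0.34 (SE; edgeR adjusted p = 0.00101), the 10th highest of all entries tested. It was 2.19, 1.03 and 2.63 within the sets.

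miR-15a-5p, the guide from the Dleu2 locus, ran from 7849 to 12749 CPM with a median of 10489 in non-allergic fluid and from 12541 to 22274 with a median of 16068 in allergic fluid. All but 1 of the allergic libraries were above the highest non-allergic one. The log2 difference of miR-15a-5p was 0.71 ± 0.15 (SE; edgeR adjusted p = 0.00316), and 0.98, 0.20 and 0.82 within the sets. miR-16-5p, the most abundant member, ran from 25421 to 42828 CPM with a median of 36748 in non-allergic fluid and from 36216 to 78820 with a median of 49208 in allergic fluid. Here 5 of 7 allergic libraries were above the non-allergic range. The log2 difference of miR-16-5p was 0.55 ± 0.14 (SE; edgeR adjusted p = 0.0094), and 0.62, 0.20 and 0.72 within the sets.

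Markers of other cells moved with these changes in fluid. Of 7 erythroid entries, 3 could be tested and all 3 were higher (median log2 difference 2.12), as were 48 of all 253 entries tested. None of the erythroid entries passed against untreated or against immunized mice alone (medians 2.08 and 2.23). The summed erythroid share was 0.268% to 1.88% in non-allergic and 1.26% to 14.9% in allergic libraries. miR-451a was 2.08 ± 0.75 higher (log2, SE; edgeR adjusted p = 0.0498), while the separate miR-486a-3p and miR-486b-3p entries were at 0 in every fluid library. Of 9 hematopoietic entries, 7 of the 8 tested were higher (median 1.91), among them miR-223-3p of granulocytes and macrophages (3.06 ± 0.58, adjusted p = 0.00219) and miR-142a-3p of all blood lineages (2.32 ± 0.33, adjusted p = 0.000781). Their summed share was 0.385% to 0.816% in non-allergic and 0.941% to 3.55% in allergic fluid. Without allergic libraries 2 and 6, an alternative added after their erythroid shares were seen, all members still passed, with log2 differences of 0.60 for miR-15a-5p, 1.01 for miR-15b-5p, 1.59 for miR-15b-3p and 0.39 for miR-16-5p (edgeR adjusted p 0.0032 to 0.0101). The part of the hematopoietic share in these results was not tested.

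**Figure D1:**
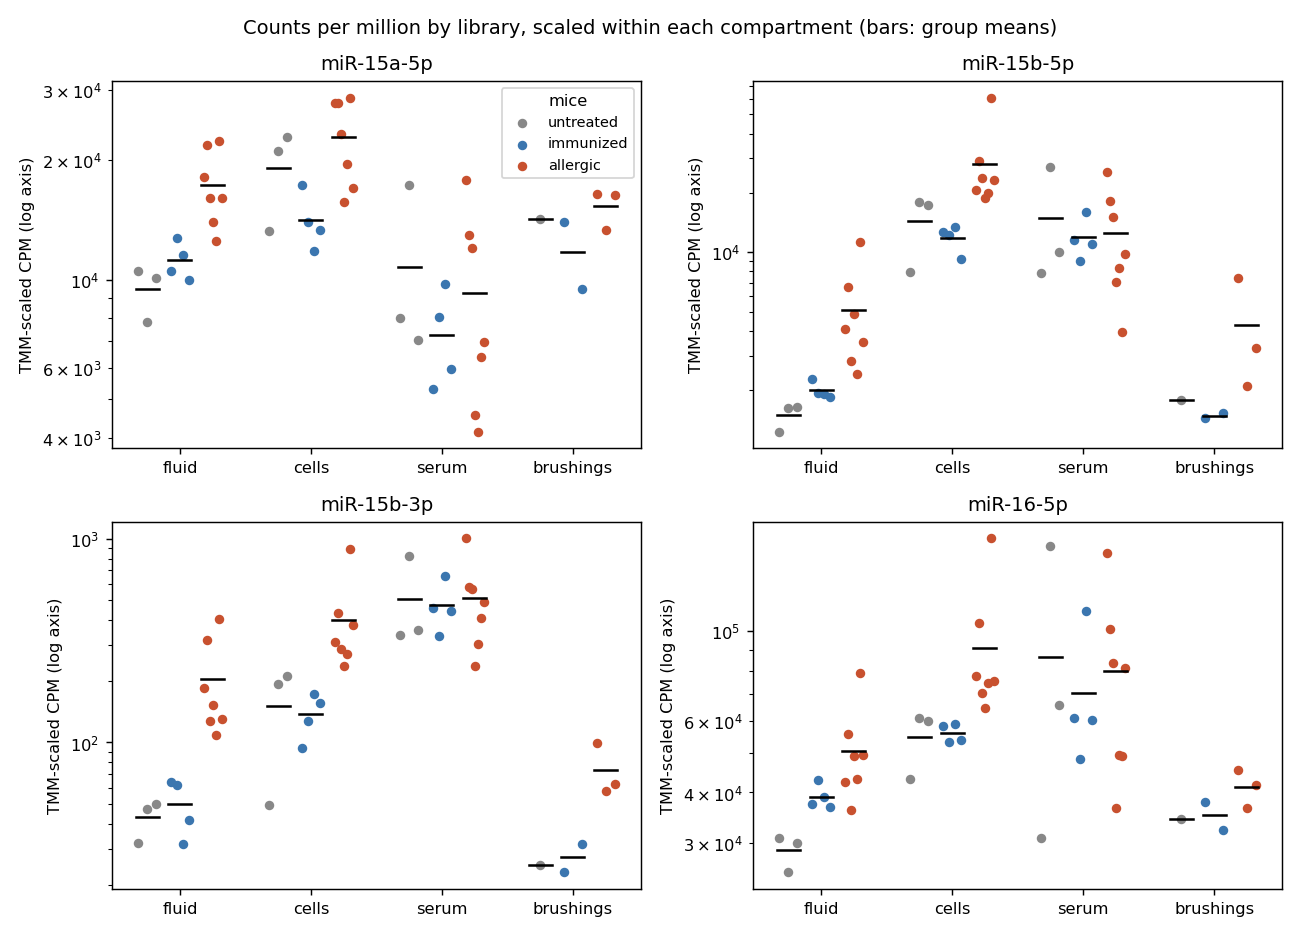
CPM of each member (log axis) in every library, by compartment, scaled within the compartment; points are libraries, coloured by treatment, and bars are group means. Both miR-15b strands separate allergic from other libraries in fluid, cells and brushings, and no member does so in serum, where 0% of all entries do; the shares of all entries higher in every allergic library are 5.53% in fluid, 10.1% in cells and 7.84% in brushings.

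In the lavage cells all 4 members were again higher in allergic mice. Here 56.2% of 217 entries passed (122 entries, 64 higher and 58 lower, median 0.04), so a call in these cells says less than in fluid. By total counts the split was 35 higher and 67 lower.

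miR-15b-5p was at 7925, 18025 and 17325 CPM in untreated cells, at 12653, 12190, 13469 and 9224 CPM in immunized cells, and at 18752, 23387 and 60759 CPM (lowest, median and highest) in allergic cells. The groups of 7 did not overlap, with every allergic library higher, as for 10.1% of the entries tested in cells, although untreated libraries 2 and 3 came close to the lowest allergic ones. The log2 difference of miR-15b-5p was 1.05 ± 0.26 (SE; edgeR adjusted p = 0.00356), and 0.85, 0.64 and 1.76 within the sets. miR-15b-3p ran from 49.1 to 211 CPM in non-allergic and from 238 to 891 CPM in allergic cells, without overlap. It was 1.39 ± 0.29 higher on the log2 scale (SE; edgeR adjusted p = 0.000847).

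miR-16-5p ran from 43194 to 61001 CPM in non-allergic cells and from 64703 to 169519 CPM in allergic cells, again without overlap. Its log2 difference was 0.68 ± 0.20 (SE; edgeR adjusted p = 0.00855), falling to 0.25 by total counts, where it no longer passed. miR-15a-5p overlapped most, with 4 of 7 allergic cell libraries above the highest non-allergic value of 22836 CPM. Its log2 difference was 0.49 ± 0.17 (SE; edgeR adjusted p = 0.0237). This call was lost without immunized library 3 (0.46, adjusted p = 0.0509) and by total counts (0.11).

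In cells 8 of 9 hematopoietic entries were higher (median 2.21) and 1 lower, with summed shares of 3.68% to 9.16% in non-allergic and 10.8% to 34.4% in allergic libraries. miR-150-5p of lymphocytes was the furthest apart of those named here (3.59 ± 0.30, edgeR adjusted p = 3.99e-07). Of 11 epithelial entries, 10 were lower and 1 higher (median −1.46), with shares of 2.38% to 4.44% and 0.368% to 1.41%. The 5 erythroid entries tested had a median of 0.36 and none passed. Without the 4 cell libraries richest in erythroid markers the members were 0.53 (miR-15a-5p), 1.07 (miR-15b-5p), 1.50 (miR-15b-3p) and 0.55 (miR-16-5p) higher on the log2 scale (edgeR adjusted p 0.000465 to 0.0257). The part of the changed cell makeup in these results was not tested.

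In serum no member passed. Of 347 entries, 0% passed in edgeR and none in DESeq2, with 27 at an unadjusted p under 0.05. The log2 differences were −0.07 for miR-15a-5p, −0.23 for miR-15b-5p, −0.03 for miR-15b-3p and −0.05 for miR-16-5p. miR-16-5p ran from 30818 to 162659 CPM in non-allergic and from 36546 to 156158 CPM in allergic serum, and the groups overlapped over nearly their whole range. Erythroid shares ran from 29.5% to 70.6% and from 21.9% to 66.8%. The direction was not the same within the sets, since all members were higher in allergic serum of set 2 (0.50 to 0.67) and lower in sets 3 and 4 (−1.10 to −0.19).

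In brushings miR-15b-5p was at 1795 CPM in the untreated library, at 1444 and 1528 CPM in the immunized libraries, and at 7421, 2100 and 3262 CPM in the allergic ones. miR-15b-3p was at 25.1, 23.1 and 31.6 CPM and at 99.5, 57.6 and 62.9 CPM in the same order. Both strands were higher in every allergic brushing than in every other one, as were 7.84% of the 306 entries tested, miR-15a-3p and miR-16-2-3p among them. Neither passed (log2 1.22, edgeR adjusted p = 0.189, and 1.36, adjusted p = 0.26), where 2.94% of entries did, with 26 at an unadjusted p under 0.05. Without the only untreated brushing, miR-15b-5p passed at 0.85 (edgeR adjusted p = 0.0294). That fit rests on sets 3 and 4, with 1 allergic and 1 immunized library each, since the allergic brushing of set 2 then has no partner. miR-15a-5p and miR-16-5p overlapped between the groups, at 0.31 and 0.24. In brushings the 4 erythroid entries tested were all higher (median 3.74), with shares of 0.177% to 0.732% in non-allergic and 0.787%, 3.03% and 17.1% in allergic libraries, and the last of these had the highest miR-15b-5p. Of 8 hematopoietic entries 3 were higher, and of 11 epithelial entries none. The part of the erythroid markers in these values was not tested.

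**Figure D2:**
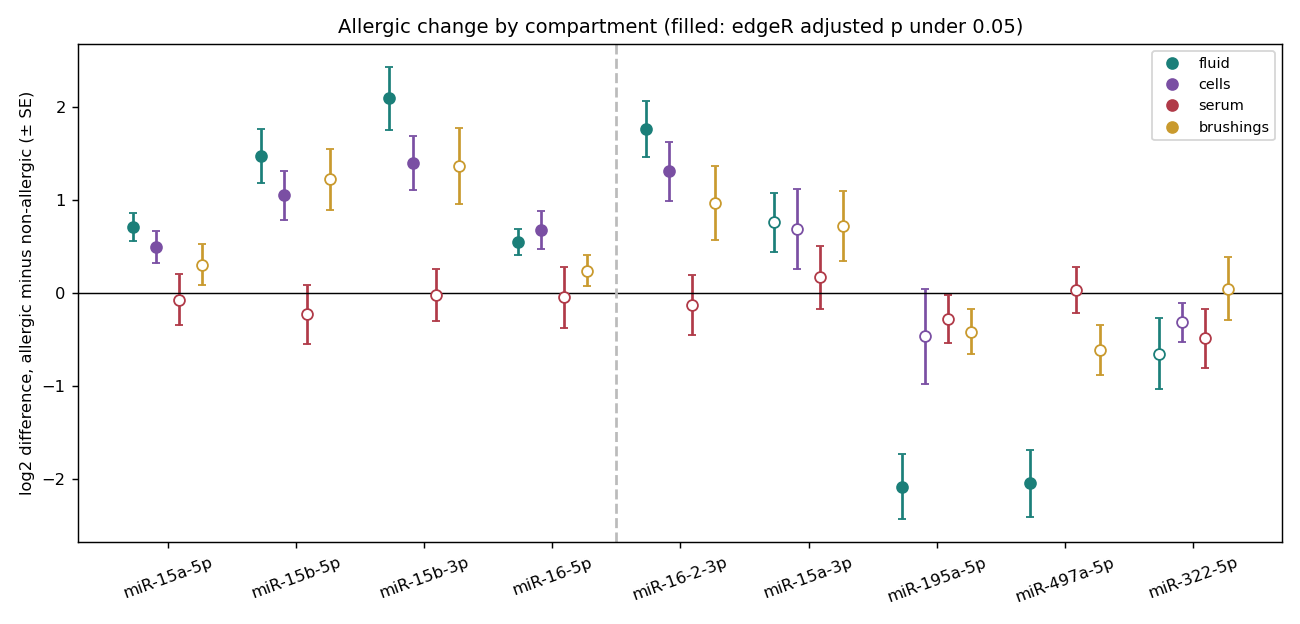
Log2 difference between allergic and non-allergic mice, with its SE, for the members (left of the dashed line) and related miRNAs, in each compartment; filled points passed at an edgeR adjusted p under 0.05. Both miR-15b strands lie above miR-15a-5p and miR-16-5p in fluid, cells and brushings, and miR-195a-5p and miR-497a-5p lie far below 0 in fluid.

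Allergic mice were then compared with each control group on its own. These contrasts come from 1 fit and share its estimate of the spread. The contrast with untreated mice rests on library set 2, and that with immunized mice on sets 3 and 4. The difference between the contrasts therefore cannot tell control group from library set. In fluid all 4 members passed against untreated mice, at log2 0.98 (miR-15a-5p), 1.60 (miR-15b-5p), 2.28 (miR-15b-3p) and 0.64 (miR-16-5p), with edgeR adjusted p from 0.00414 to 0.0368, where 27.3% of entries passed. Against immunized mice 4.74% of entries passed and miR-15b-3p was the only member among them (1.96 ± 0.46, adjusted p = 0.0363). miR-15b-5p stood at 1.38 ± 0.40 (adjusted p = 0.0666), miR-15a-5p at 0.51 (0.111) and miR-16-5p at 0.48 (0.137). miR-15b-5p passed against immunized mice without allergic library 2, 5 or 7 (1.41 to 1.68, adjusted p 0.0239 to 0.04) and in DESeq2 (1.35, 0.00541), where miR-15a-5p passed too (0.51, 0.0356). The difference between the contrasts passed for no member (edgeR adjusted p 0.414 to 0.879) and for 1.19% of entries, so the contrasts were not shown to differ. Leaving out allergic library 4 or 6, or any of immunized libraries 2, 3 and 4, ended the miR-15b-3p call against immunized mice (1.34 to 2.03, adjusted p 0.0554 to 0.167). Against untreated mice, miR-15b-5p was lost without allergic library 2 (1.26, adjusted p = 0.0625) and miR-16-5p without untreated library 2 (0.53, 0.111) or allergic library 2 (0.49, 0.101), by total counts (0.36, 0.0818) and with no filter on low counts (0.58, 0.0577).

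In cells 3 members passed against immunized mice and none against untreated mice. Against immunized mice, where 44.7% of entries passed, miR-15b-5p was at 1.27 ± 0.35 (edgeR adjusted p = 0.0105), miR-15b-3p at 1.60 ± 0.38 (0.00481) and miR-16-5p at 0.72 ± 0.26 (0.0373; 0.18 and 0.607 by total counts). Against untreated mice, where 42.9% passed, the values were 0.77 for miR-15b-5p (0.128; 0.86 and 0.025 with no filter on low counts), 1.11 for miR-15b-3p (0.0548) and 0.62 for miR-16-5p (0.107). miR-15a-5p was at 0.52 (0.085) against immunized and 0.47 (0.176) against untreated mice, and passed against immunized mice without untreated library 1, immunized library 1 or allergic library 4 (0.61 to 0.75, adjusted p 0.0347 to 0.0496). The difference of the contrasts passed for 3.23% of entries and for no member (0.661 to 0.946). The median erythroid share was 48.5% in untreated and 13.4% in immunized cells. Without allergic library 6, miR-15b-5p (0.79, 0.0274), miR-15b-3p (1.11, 0.026) and miR-16-5p (0.64, 0.0111) passed against untreated mice, and miR-16-5p no longer passed against immunized mice (0.42, 0.0738). miR-15b-3p also passed against untreated mice without untreated library 3 (1.41, 0.0462) or allergic library 7 (1.09, 0.0484), and miR-16-5p also failed against immunized mice once allergic library 5 or immunized library 3 or 4 was left out (0.69 to 0.77, adjusted p 0.0562 to 0.104).

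In serum 11% of entries passed against untreated mice, 0% against immunized mice (4 at an unadjusted p under 0.05, and none in DESeq2) and 2.59% for the difference, with no member in any of them. For the contrast with untreated mice and for the difference, a single library decided this. miR-16-5p was at 30818, 162659 and 65599 CPM in untreated serum, and miR-15b-5p at 7884, 27056 and 10089 CPM. Untreated library 2 was the highest of all serum libraries for both, and its erythroid share of 70.6% was the highest as well. Without it, allergic serum was higher than untreated serum for miR-15a-5p (1.14), miR-15b-5p (1.36), miR-15b-3p (1.27) and miR-16-5p (1.49), with edgeR adjusted p from 0.03 to 0.0424. The differences from the change against immunized mice then passed too, at 1.60, 2.08, 1.72 and 1.90 in the same order (edgeR adjusted p 0.0241 to 0.0394). Those are also differences between library set 2 and sets 3 and 4, and the design cannot separate set from control group. On the untreated side these calls rest on libraries 1 and 3, the lower in miR-16-5p and miR-15b-5p. Library 1 was also the shallowest serum library (137638 counts).

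The allergic change was next compared between compartments in 1 fit of all libraries. The change of both miR-15b strands was larger in fluid than in serum, by 1.64 ± 0.41 for miR-15b-5p and 2.09 ± 0.41 for miR-15b-3p (log2, SE; edgeR adjusted p = 0.00625 and 0.000392), where 7.52% of 399 entries passed. These 2 calls held when any library was left out. The change was also larger in cells than in serum, by 1.33 ± 0.41 (adjusted p = 0.0129) and 1.49 ± 0.40 (0.00499), where 28.8% of entries passed. That of miR-15b-5p was lost in 23 of the 48 fits that left out a library (0.76 to 1.45 over all of them), and that of miR-15b-3p without cells of allergic library 2 or 6 or serum of untreated library 2 or immunized library 1 or 3 (0.97 to 1.12). For miR-15a-5p and miR-16-5p the fluid change exceeded the serum change by 0.76 (0.082) and 0.58 (0.346), and neither passed. miR-15a-5p passed without serum of untreated library 3 (1.02, 0.0268). The cell change exceeded the serum change by 0.61 (0.0881) for miR-15a-5p and 0.79 (0.0645) for miR-16-5p, and the latter passed without cells of allergic library 7 (0.85, 0.0498) or serum of untreated library 1 (0.91, 0.0108). Between fluid and cells the differences were −0.21 to 0.60 (adjusted p 0.332 to 0.766; 17% of entries passed). Between fluid and brushings they were 0.15 to 0.64, with an adjusted p of 1 for all members, 27 entries at an unadjusted p under 0.05 and 0.752% passing.

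The guides also differed in where they were abundant. miR-15b was low in brushings and fluid and high in cells and serum, whereas miR-15a-5p varied least of the members. With 1 scaling over all libraries, miR-15a-5p in non-allergic mice was at 9793 ± 1824 CPM in fluid (SD, n = 7), 11747 ± 1673 in brushings (n = 3), 15117 ± 4597 in cells (n = 7) and 10376 ± 4207 in serum (n = 7). miR-15b-5p was at 1686 ± 468, 1496 ± 117, 12039 ± 3791 and 15752 ± 7163 CPM in the same order. miR-16-5p was at 32630 ± 7829, 32983 ± 3506, 51410 ± 6924 and 92225 ± 50588 CPM, and miR-15b-3p at 43.9 ± 14.6, 25.4 ± 6.66, 134 ± 56.8 and 583 ± 215 CPM. From the lowest mean, the order was brushings, fluid, cells and serum for both miR-15b strands, where fluid and brushings were not told apart, nor cells and serum for miR-15b-5p. It was fluid, brushings, cells and serum for miR-16-5p, again with fluid and brushings not told apart. For miR-15a-5p fluid was below cells, and no other pair of compartments passed.

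Fluid was below cells for every member in non-allergic mice, by log2 −3.11 ± 0.27 for miR-15b-5p (edgeR adjusted p = 2.41e-10), −1.89 for miR-15b-3p (8.56e-06), −0.94 for miR-16-5p (0.00141) and −0.87 for miR-15a-5p (0.00158), where 68.3% of 356 entries passed. Against serum, where 77% passed, fluid was lower by −3.54 ± 0.27 for miR-15b-5p (7.53e-12), −4.04 ± 0.32 for miR-15b-3p (1.01e-11) and −1.80 for miR-16-5p (2.82e-07), while miR-15a-5p was at −0.37 (0.134; 0.44 and passing in the other direction by total counts, 0.0182). Fluid and brushings were not told apart for any member (−0.29 to 0.77, adjusted p 0.301 to 0.987; 11.2% of entries passed). Cells were above brushings for miR-15b-5p (3.25, 9.8e-08), miR-15b-3p (2.66, 1.24e-05) and miR-16-5p (0.90, 0.0184), where 62.1% passed, and the last call was lost without any single brushing (0.72 to 0.87, adjusted p 0.0636 to 0.175). Serum was above brushings for the same members (3.68, 4.81 and 1.76, adjusted p up to 5.98e-05; 64% passed), with miR-15a-5p at 0.08 (0.818; −0.65 and 0.00905 by total counts). Cells were below serum for miR-15b-3p (−2.15, 3.95e-07) and miR-16-5p (−0.87, 0.00259; −0.16 and not passing by total counts), where 68% passed. The cells against serum values of miR-15a-5p (0.49, 0.0541) and miR-15b-5p (−0.43, 0.133) did not pass. miR-15a-5p passed there in 6 of the 24 fits that left out a library (0.51 to 0.71) by DESeq2 (0.54) and by total counts (1.13, 2.49e-06), and miR-15b-5p without serum of untreated library 1 (−0.57, 0.0308).

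In allergic mice the joint levels of miR-15b-5p were 4427 ± 2161 CPM in fluid (SD, n = 7), 3899 ± 2113 in brushings (n = 3), 26569 ± 13266 in cells (n = 7) and 14626 ± 8090 in serum (n = 7), so its highest level was now in cells. Cells exceeded serum by 0.90 for miR-15b-5p (edgeR adjusted p = 0.0225) and 1.10 for miR-15a-5p (1.41e-05), were below it for miR-15b-3p (−0.65, 0.0323) and at −0.09 for miR-16-5p (0.766), where 66.9% of 378 entries passed. The miR-15b-5p call was lost without brushings of allergic library 2 or 3, cells of 5 or 6 or serum of 7 (0.60 to 0.81), and the miR-15b-3p call without cells of allergic library 1, 3, 4 or 7 (−0.62 to −0.55). Fluid stayed below cells (−0.46 for miR-15a-5p, −2.58 for miR-15b-5p, −1.07 for miR-15b-3p and −0.89 for miR-16-5p, adjusted p up to 0.0356; 74.1% passed). The miR-15a-5p call was lost in 9 of 24 fits that left out a library (−0.45 to −0.27). Against serum fluid was lower for miR-15b-5p (−1.68, 0.000124), miR-15b-3p (−1.72, 1.92e-06) and miR-16-5p (−0.98, 0.000442) and higher for miR-15a-5p (0.64, 0.00486; 0.36 and not passing with no filter on low counts), where 76.5% passed.

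Against brushings, allergic fluid was higher for miR-15b-3p alone (1.31, edgeR adjusted p = 0.0182; 1.13 and 0.129 without brushings of allergic library 3), where 16.9% of entries passed. Allergic cells were above brushings for miR-15b-5p (2.79, 3.16e-05), miR-15b-3p (2.38, 7.18e-06) and miR-16-5p (1.09, 0.00265), where 73% passed. miR-15a-5p was at 0.47 (0.102), and passed without serum of allergic library 1 (0.61, 0.0277). Allergic serum was above brushings for the same members (1.90, 3.02 and 1.18, adjusted p up to 0.00164) and below them for miR-15a-5p (−0.63, 0.0275), where 69.8% passed. The last call was lost in 8 of 24 fits that left out a library (−0.56 to −0.35).

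**Figure D3:**
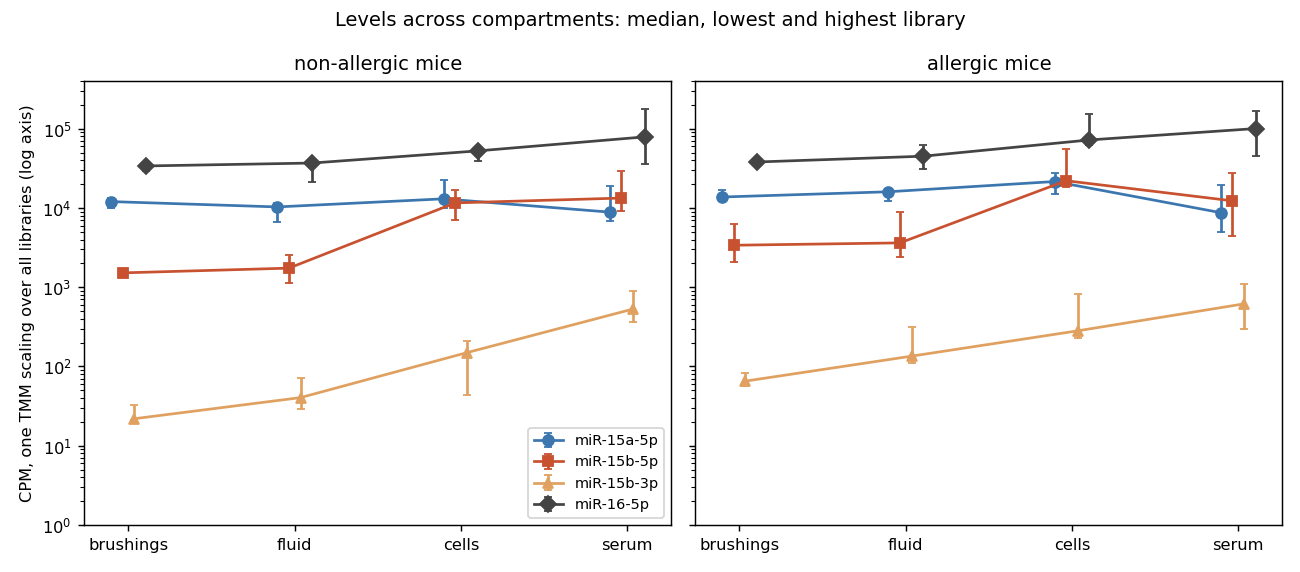
Median CPM of each member by compartment in non-allergic and allergic mice, on 1 scaling over all libraries (log axis); bars run from the lowest to the highest library. miR-15b-5p and miR-15b-3p rise steeply from brushings and fluid to cells and serum in non-allergic mice, while miR-15a-5p stays within a narrow band.

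The strands of miR-15b were compared by the ratio of 5p to 3p counts within a library, which needs no scaling between libraries. In every library the 5p guide far exceeded the 3p passenger. Geometric mean ratios in non-allergic mice were 37.5 in fluid (30.8 to 57.3), 91.9 in cells (58.4 to 138) and 26.4 in serum (23.1 to 32.7), and brushings were at 67.2 in the untreated and 60.3 and 47.3 in the immunized libraries. In allergic mice they were 24.2 in fluid (20.6 to 31.0), 70.7 in cells (61.4 to 82.6) and 22.9 in serum (9.64 to 31.4), and the allergic brushings were at 71.3, 35.9 and 50.9. Cells held the highest mean ratio of the 3 compartments with 7 libraries a group, and serum the lowest.

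In fluid the ratio was lower in allergic mice by 0.63 on the log2 scale, a 1.55-fold change (exact two-sided permutation within library sets, p = 0.00556, adjusted over 16 tests 0.0444). The set differences were −0.667, −0.335 and −0.879. Only allergic library 4 (31.0) reached the non-allergic range, where the lowest was immunized library 2 (30.8). With at least 10 counts of each strand required the log2 difference was −0.53 (adjusted exact p = 0.0593), and without allergic libraries 2 and 6 it was −0.60 (0.0889). Leaving out allergic library 2, untreated library 1 or any of immunized libraries 2, 3 and 4 also ended the fluid call (−0.68 to −0.57, adjusted 0.0593 to 0.0622). In cells the difference was −0.38 (exact p = 0.0194, adjusted 0.0593; −0.45 and 0.0444 without immunized library 4), in serum −0.20 (adjusted 0.511), and in brushings the exact p was 1 where the smallest possible is 0.25. Against all miRNA names with both arms counted, limma passed 6.45% of 62 names in fluid, with miR-15b among them (−0.63 ± 0.15, adjusted p = 0.0216; 0.0565 over 97 names at a lower count minimum). In cells, serum and brushings limma passed 0% of 43, 82 and 70 names, with 7, 4 and 3 at an unadjusted p under 0.05. The strand ratio of miR-15a moved by −0.11 in fluid (limma adjusted p = 0.921).

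Between compartments the strand ratio of miR-15b in non-allergic mice was lower in fluid than in cells (log2 −1.29, adjusted exact permutation p = 0.00833, over 12 tests) and higher in cells than in serum (1.80, 0.00833). Fluid exceeded serum by 0.51 (0.0133) in non-allergic mice and by 0.08 (0.828) in allergic mice. Cells stayed above fluid and serum in allergic mice (−1.55 for fluid against cells and 1.63 for cells against serum, both 0.00833). Serum was below brushings in both states (−1.15 and −1.20, both 0.0417), and fluid was below brushings in allergic mice (−1.06, 0.0417) with −0.61 (0.0667) in non-allergic mice. Cells against brushings gave 0.65 (0.0667) and 0.46 (0.0909). Every call against brushings was lost without any single library, since the fewer libraries allow fewer exact permutations (−1.61 to −0.69, adjusted 0.0556 to 0.133), and cells against brushings passed in non-allergic mice without untreated library 1 of cells (0.57, 0.0494).

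**Figure D4:**
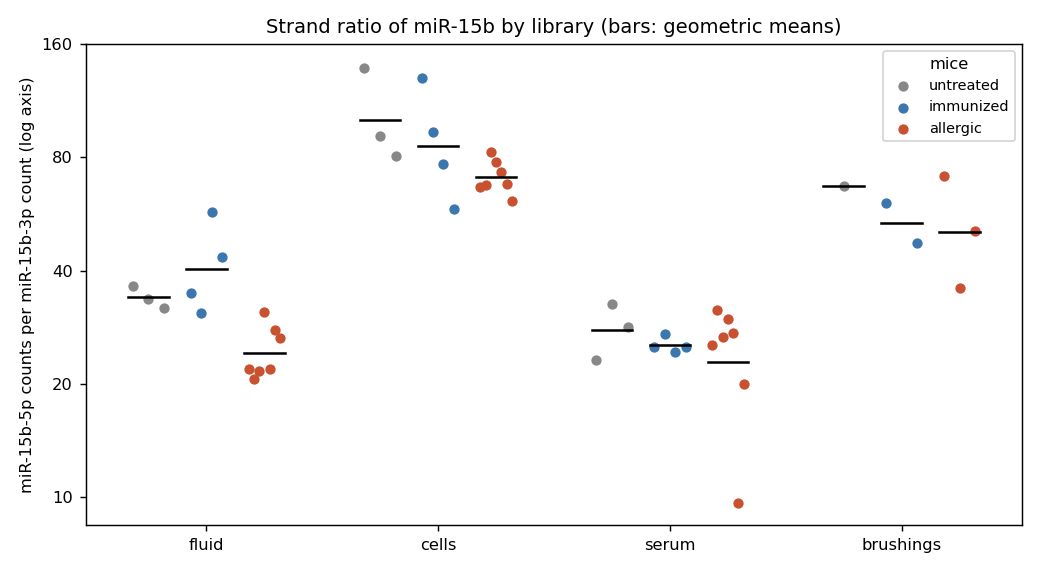
miR-15b-5p counts per miR-15b-3p count in each library (log axis), by compartment and treatment; bars are geometric means. Allergic fluid libraries lie at 20.6 to 31.0 against 30.8 to 57.3 in the others, and allergic library 6 of serum is the lowest point at 9.64.

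The mix of guides that carry the shared seed also moved. In fluid there were 19.4 miR-16-5p counts for each miR-15b-5p count in non-allergic mice and 11.0 in allergic mice (log2 −0.82, adjusted exact permutation p = 0.0444), and miR-15b-5p per miR-15a-5p was 0.17 and 0.264 (0.64, 0.0593). In cells miR-15b-5p per miR-15a-5p was 0.792 and 1.16 (0.55, 0.0444), and miR-16-5p per miR-15b-5p was 4.42 and 3.33 (−0.41, 0.0593). Without the libraries richest in erythroid markers the fluid change of miR-16-5p per miR-15b-5p was −0.60 (0.0889) and the cell change of miR-15b-5p per miR-15a-5p was 0.54 (0.119). The fluid call of miR-16-5p per miR-15b-5p ended when any of the same 5 libraries was left out (−0.81 to −0.74), and the cell call of miR-15b-5p per miR-15a-5p in 11 of 14 fits without a library (0.44 to 0.59). The values that missed the threshold passed without allergic library 5 in fluid (0.74, 0.0333) and without untreated library 2 or 3 in cells (−0.47 and −0.46, both 0.0444). miR-16-5p per miR-15a-5p was 3.3 and 2.91 in fluid (−0.18, 0.0698). In serum no guide ratio passed, and in brushings 3 libraries a group cannot reach an exact p below 0.25.

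Other arms of the same hairpins were examined next. miR-16-2-3p, the passenger made beside miR-15b on chromosome 3, was at 56.9 ± 14.7 CPM in non-allergic and 198 ± 92.2 CPM in allergic fluid (SD, n = 7 each), without overlap, and at 123 ± 48.9 and 323 ± 174 CPM in cells. Its log2 differences were 1.77 ± 0.30 (edgeR adjusted p = 0.00115) and 1.31 ± 0.32 (0.00304). miR-15a-3p was at 0.76 (0.0881) in fluid and 0.69 (0.177) in cells. miR-16-1-3p, the passenger from chromosome 14, was too rare to test outside serum. Summed over libraries, miR-16-2-3p and miR-16-1-3p had 144 and 24 counts in non-allergic fluid and 336 and 28 in allergic fluid, 148 and 39 and then 611 and 60 in cells, 2442 and 99 and then 2662 and 189 in serum, and 63 and 13 and then 80 and 14 in brushings. The chromosome 3 passenger was thus the more frequent in every compartment and state.

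Other guides of the family did not follow. miR-195a-5p and miR-497a-5p, made from neighbouring hairpins on chromosome 11 (chr11:70235062-70235082 and chr11:70234730-70234751), fell in allergic fluid. miR-195a-5p went from 1440 ± 986 to 321 ± 116 CPM (SD, n = 7 each; log2 −2.09 ± 0.35, edgeR adjusted p = 0.00112) and miR-497a-5p from 647 ± 541 to 144 ± 47.6 CPM (−2.05 ± 0.36, 0.0014). miR-503-5p fell by 1.28 on the log2 scale (edgeR adjusted p = 0.0498). Its hairpin neighbour on chromosome X, miR-322-5p, was at −0.65 (0.221), with −1.55, −0.46 and 0.79 within sets 2, 3 and 4. The fall of miR-503-5p lay mostly in set 2 (−2.88), against −0.50 and −0.43 in sets 3 and 4. It passed against untreated mice (−2.76) and not against immunized mice (−0.29). In fluid 2 of the 3 tested guides of this list fell, with a list median of −2.05, where 36 of all 253 entries fell. In cells 0 of 2 passed (median −0.39), where 58 of 217 entries were lower. There miR-195a-5p was at −0.47 (0.441) and miR-322-5p at −0.32 (0.198). By control group, 3 of these guides passed as lower in fluid against untreated mice and 1 against immunized mice. Of all 253 entries, 33 and 1 did. The list also held miR-195b, which has the shared seed, and miR-497b, which has another seed and was listed for its name, and neither passed the low-count filter. miR-126a-3p and miR-126a-5p of endothelium (−1.21 and −1.34, adjusted p 0.0217 and 0.0143) and miR-122-5p of liver (−1.83, 0.0104) were lower in the same fluid libraries. The part of their sources in the fall of miR-195a-5p and miR-497a-5p was not tested.

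The miR-17-92 family, growth-linked miRNAs listed for their abundance in dividing and blood cells, rose with the members. All 9 of its entries were higher in fluid (median 0.69), where 48 of all 253 entries were, and 8 of 9 in cells (median 1.23), where 64 of 217 were. The exception in cells was miR-106b-5p at 0.52 (edgeR adjusted p = 0.0714). Taken by control group the rise was less even. Of the 9 entries, 4 passed as higher in fluid against untreated mice and 1 against immunized mice, where 36 and 11 of all 253 entries did. For cells these counts were 3 and 9, where 48 and 49 of all 217 entries were higher. In fluid miR-25-3p was at 1.85 ± 0.36 (adjusted p = 0.00232) and miR-92a-3p at 1.49 ± 0.24 (0.00101). None of the 9 passed in serum (median 0.13) or brushings (median 0.47), where 0 of 347 and 9 of 306 entries passed.

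The likeness of the members over all 48 libraries depended on whether differences between compartments were kept. The values are a description over log2 CPM on 1 scaling, in which compartment, treatment, library set and depth are shared. Pearson's r was 0.85 between miR-15b-5p and miR-15b-3p and 0.86 between either strand and miR-16-5p. With miR-15a-5p it was 0.41 for miR-15b-5p and 0.16 for miR-15b-3p. Of 248 entries, the closest to miR-15b-5p were miR-106b-3p (0.93), miR-93-5p (0.92) and miR-18a-5p (0.90), and the closest to miR-15b-3p were miR-16-2-3p and miR-25-3p (both 0.95). miR-16-5p was closest to miR-17-5p (0.91), and miR-15a-5p to miR-107-3p (0.81). The mean of each compartment and set was then removed, but not that of treatment, so the allergic change of the members remains in this measure. Here r was 0.93 between the miR-15b strands. It was 0.81 and 0.84 between miR-15b-5p and miR-15a-5p or miR-16-5p, and 0.82 and 0.75 between miR-15b-3p and the same. In that measure, miR-16-2-3p was the closest entry to miR-15b-3p (0.92) and the second closest to miR-15b-5p (0.90) and miR-15a-5p (0.82).

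**Figure D5:**
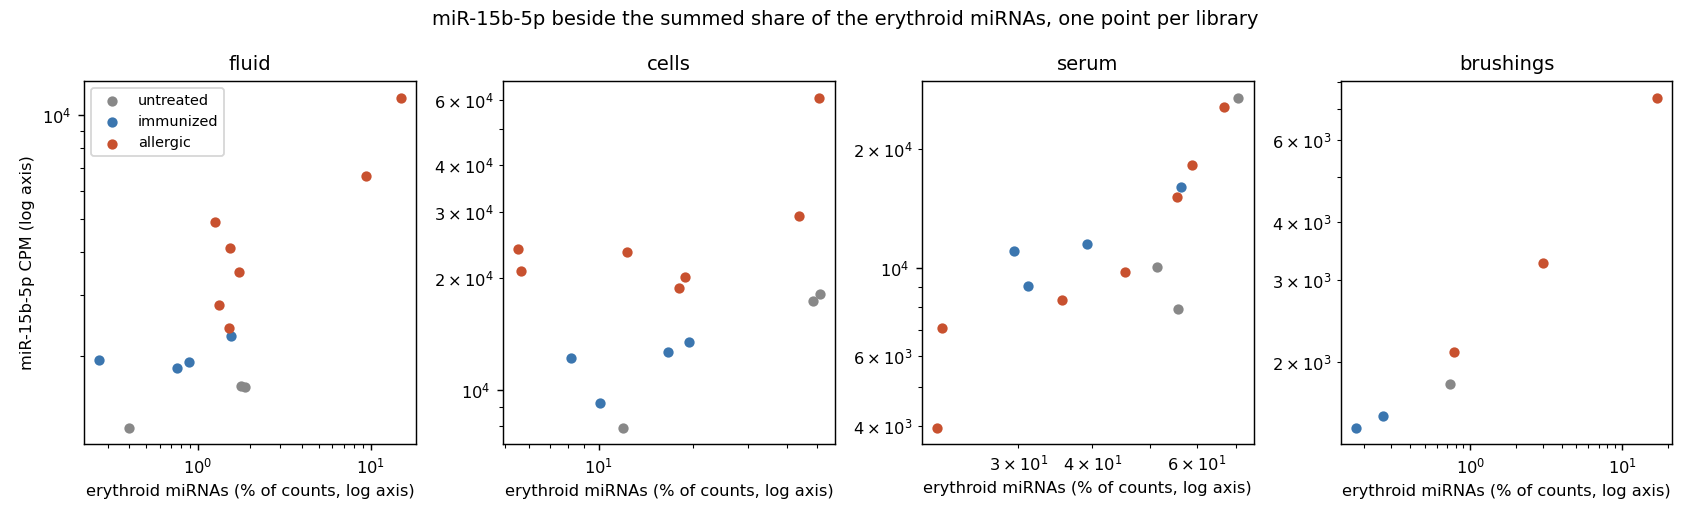
miR-15b-5p CPM beside the summed share of erythroid miRNAs in the same library (both log axes), a panel for each compartment and a point for each library. The library with the highest erythroid share also has the highest miR-15b-5p in fluid (14.9%, 11227 CPM) and brushings (17.1%, 7421 CPM), and in serum untreated library 2 is highest for both (70.6%, 27056 CPM). In cells the highest share is in untreated library 2 (50.9%, 18025 CPM) and the highest miR-15b-5p in allergic library 6 (50.6%, 60759 CPM).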

How the data were processed

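Small RNA was sequenced in the 48 libraries described above. Each library set has its own table of expected counts, deposited by the authors, and 4.4% of the values were not whole (tolerance 1e-06). Trimming with cutadapt, the mm10 build and DESeq2 are named per the submitters' processing notes, without versions or roles, and which aligner was run was not given in the sources used here. RPM values for all libraries, deposited by the authors in a further table with equal column sums, served as an alternative only. Of the 1409 entries, 113 were hairpins and 26 joined several mature names, none of them a member's. All columns matched a labelled library (0 unmatched).

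Rounding these to whole numbers moved a library's total by 0.00108% at the median, and the 10722 values absent from a table were set to 0. The plan had assumed such counts. They were fitted with edgeR 4.0.16 in R 4.3.3 (filterByExpr at a minimum count of 10, TMM scaling, robust quasi-likelihood test, library set as a term), with Benjamini-Hochberg adjustment over all entries tested and a threshold of 0.05. DESeq2 1.42.0 was an alternative. Ratios added 0.5 to each count and were tested by exact two-sided permutation within library sets, and limma 3.58.1 tested the strand ratio of all names with at least 10 counts on average in both arms (3 in an alternative). Scripts were tested on simulated data. Totals ran from 43087 to 2738223 counts, and counting error is largest for miR-15b-3p.

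The members, lists and tests were chosen with earlier results of these data known. The text names the members in every comparison, the other arms and guides of the family, the listed markers and, for likeness, the closest entries by r with a mean of at least 50 CPM. Lists were erythroid, hematopoietic, epithelial, endothelial, liver, miR-17-92 and the family lists. Alternatives changed scaling, filter, test, the set term, the erythroid entries and the libraries left out, and added the replicate number as a block. The fits without the libraries of over 5% (fluid) or 40% (cells) erythroid counts were added after the shares were seen. The labels do not say whether libraries of 1 group, or of 1 number, came from separate or shared mice, so the p-values cover the spread from library to library, part of which may be technical. Positions of hairpin genes and hosts are from the GENCODE vM21 annotation of GRCm38, the same assembly as mm10, 1-based.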

Additional observations from a re-analysis of the deposited data

Results flagged for a closer look

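Of 48 groups of 4 to 10 libraries examined for a value far from the others, 6 had one, where chance alone gives about 1 in 20. Allergic library 6 of the lavage cells was apart for miR-15b-5p (60800 CPM, next 29200), miR-15b-3p (891 CPM, next 431) and miR-16-5p (170000 CPM, next 105000). Its erythroid share was 50.6%. Allergic library 6 of serum had a miR-15b-5p to miR-15b-3p ratio of 9.64 (next 19.9) and a miR-15b-5p to miR-15a-5p ratio of 0.619 (next 1.26). Immunized library 3 of serum had a miR-16-5p to miR-15b-5p ratio of 6.99 (next 5.46).

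The allergic change differed between compartments by a test of the difference itself (edgeR, 1 fit of all libraries). It was larger in fluid than in serum for miR-15b-3p (log2 2.09) and miR-15b-5p (1.64), and larger in cells than in serum for miR-15b-3p (1.49) and miR-15b-5p (1.33).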

How the results depend on the processing

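Over 177 results, 804 alternative values were computed besides those leaving out a library, of which 690 kept direction and side of the threshold (or stayed within the allowed range), 34 no longer passed, 16 newly passed, 41 changed sign and 23 moved. Of 3606 values without a library, 3317 kept both. Every number below is a log2 difference unless said otherwise, and the cause of each shift was not tested. miR-15b-3p counts are the lowest and limit its precision and that of the strand ratio.

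Scaling by total counts and the RPM values lowered the median of all entries (fluid −0.21 and −0.20, cells −0.31 and −0.36). In fluid miR-16-5p was 0.31 in RPM and no longer passed. In cells miR-15a-5p no longer passed with DESeq2 size factors (0.44), total counts (0.11), the replicate block (0.37) or RPM (0.12), nor miR-16-5p with total counts (0.25), the block (0.58) or RPM (0.26). In brushings miR-15b-5p passed with DESeq2 size factors (1.26), no low-count filter (1.21) and DESeq2 (1.26).

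In serum, where no member passed, the sign changed for miR-15a-5p with no filter (0.07), the block (0.56) and no set term (0.08). It changed for miR-15b-3p with total counts (0.01), no filter (0.11), the block (0.50), no set term (0.07), without erythroid entries (0.01) and in RPM (0.01). It changed for miR-15b-5p with the block (0.50), and for miR-16-5p with total counts (0.02), no filter (0.09), the block (0.56), no set term (0.04) and RPM (0.07).

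Deviations of same-numbered libraries from the mean of their group and library set correlated weakly and positively between fluid and cells (r 0.00259 to 0.293, over 0.1 in 9 of 14). They did not correlate with serum (median −0.0476 for fluid and −0.0635 for cells). In sets 3 and 4 the libraries of a group mirrored each other around their mean, so their r values were equal. Between fluid and cells these were 0.046 and 0.293 (immunized) and 0.00259 and 0.163 (allergic). The 14 values are therefore not independent. Not every value was over 0.1, so the numbers were not taken to pair the libraries. That choice does not show that the libraries came from different mice. Of 90 values with the replicate block, 58 stayed the same, 9 no longer passed, 1 newly passed, 16 changed sign and 6 moved. In brushings each set holds 1 allergic and 1 other library, so the fit with the set term already compares them in pairs, and a further block could not be fitted. In tests of treatment the block used the replicate number alone. It tied immunized libraries 1 to 4 to untreated or allergic libraries of other sets, and allergic libraries 5 to 7 had no partner. With it 0 entries passed against immunized mice in fluid or cells, where 12 and 97 did in the main fit. These losses and sign changes cannot tell whether libraries were paired. The block ended the calls against immunized mice of miR-15b-3p in fluid (1.26, adjusted p = 0.706 in edgeR) and, in cells, of miR-15b-5p (0.88, 0.797), miR-15b-3p (1.09, 0.852) and miR-16-5p (0.39, 0.894). It ended that of miR-16-5p against untreated fluid (0.62, 0.0851), and miR-15b-5p passed against untreated cells (0.82, 0.0469). With the block, allergic against immunized reversed in cells for miR-15a-5p (−0.28) and in serum for miR-15a-5p (0.79), miR-15b-3p (0.44), miR-15b-5p (0.61) and miR-16-5p (0.83). The difference between the contrasts reversed in fluid for miR-15b-5p (−0.03), in cells for miR-15a-5p (0.76; 0.23 with total counts), miR-15b-3p (0.09) and miR-16-5p (0.23; 0.16 with total counts), and in serum for miR-15a-5p (−0.26), miR-15b-5p (−0.13) and miR-16-5p (−0.32).

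Between compartments, total counts reversed fluid against serum for miR-15a-5p (0.44), fluid against brushings for miR-16-5p (0.05), cells against serum for miR-15b-5p (0.22) and serum against brushings for miR-15a-5p (−0.65), all non-allergic, cells against serum for allergic miR-16-5p (0.07) and the fluid minus cells change of miR-16-5p (0.07). Non-allergic serum against brushings of miR-15a-5p was −0.04 with DESeq2 or its size factors and −0.02 with no filter. Allergic fluid against brushings of miR-15a-5p was −0.08 with both, and its fluid minus cells change −0.02 with no filter.

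Counts of entries passing were 43 in fluid without the erythroid-rich libraries, 21 in serum with the block, and 16 with no filter, 0 with no set term and 0 in RPM in brushings. The fluid strand ratio was −0.53 with at least 10 counts and −0.60 without the erythroid-rich libraries.

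Without 1 library each, miR-15a-5p in cells ran from 0.40 to 0.61, in serum from −0.21 to 0.10, miR-15b-3p in serum from −0.18 to 0.15, miR-16-5p in serum from −0.24 to 0.25, and miR-15b-5p in brushings from 0.81 to 1.57. The difference between contrasts ran in fluid from −0.09 to 0.98 (miR-15b-3p), −0.15 to 0.82 (miR-15b-5p) and −0.03 to 0.40 (miR-16-5p), and in cells from −0.36 to 0.14 (miR-15a-5p) and −0.35 to 0.22 (miR-16-5p). miR-16-5p against untreated serum ran from −0.01 to 1.49. Non-allergic fluid against brushings of miR-16-5p ran from −0.12 to 0.08, serum against brushings of miR-15a-5p from −0.33 to 0.19, and allergic fluid against brushings of miR-15a-5p from −0.23 to 0.25. The fluid minus cells change ran from −0.09 to 0.55 (miR-15a-5p) and −0.43 to 0.26 (miR-16-5p), and fluid minus brushings of miR-15b-5p from −0.08 to 0.73. Brushings had 0 to 27 entries passing. The strand ratio ran from −0.72 to −0.57 in fluid, −0.45 to −0.28 in cells, −0.33 to 0.10 in brushings and −0.12 to 0.16 for allergic fluid against serum. miR-16-5p per miR-15a-5p ran from −0.08 to 0.18 in serum and −0.20 to 0.11 in brushings, and miR-15b-5p per miR-15a-5p from −0.32 to 0.02 in serum.

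The alternative on entries that join several mature names was not run, since no such entry holds a member.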
